A study of Rattus norvegicus with 233 samples.

Results

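Hepatocytes of ethanol-fed rats were compared with hepatocytes of control-fed rats at 0 h, the time of partial hepatectomy, in single cells measured by targeted real-time PCR. The comparison rests on 124 of the 233 cells of the series: 69 cells of the control diet, which the labels name Carbohydrate, and 55 cells of the ethanol diet. Cells were chosen by their titles alone, and every cell with either title was kept. The other 109 cells were taken 24 h after resection. They are used below only in choosing the assays that scale each cell and for values side by side. Both diets followed the Lieber-De Carli protocol. The sources used here do not name the strain, sex or age of the rats, the length of feeding or the number of animals. The design marks the 0 h cells LLM and the 24 h cells PHx without spelling out LLM. Each cell was cut from liver tissue by laser capture microdissection, in which a laser frees a chosen cell from a section, and its whole lysate was used.

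Hepatocytes are the main parenchymal cells of the liver and the principal site of ethanol oxidation, through alcohol dehydrogenase and the inducible cytochrome CYP2E1. Long-term ethanol intake is known for fat accumulation and oxidative stress in these cells and for slower regeneration after part of the liver is removed. The Lieber-De Carli regimen feeds ethanol in a liquid diet and gives the controls the same energy as carbohydrate. The 0 h cells therefore show the 2 diets before any regrowth.

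The 84 assays carry the numbers A01 to A84, and the sources used here do not pair them with genes. The assays are reported by number, no primer or target sequence is shown, and the hepatocyte label could not be checked against marker genes. A cycle threshold (Ct) is the cycle at which the product becomes detectable, and a lower Ct means more template. Relative levels were formed by subtracting the assay's Ct from the median Ct of 28 common assays in the same cell. Common assays are those detected in 80% or more of the cells in each group. A higher relative level stands for more of that transcript relative to the common assays of the same cell. The levels are on the log2 scale if each cycle doubles the product. Relative levels are compared here between cells for the same assay, since primers differ in efficiency. No label links a cell to its animal, so each diet counted as 1 sample. No test was made, and diet, animal and run cannot be told apart. SDs and intervals are over cells only.

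Cells of the ethanol diet gave values for more of the panel. The number of assays with a value was 33 in the lowest, 54 in the median and 78 in the highest control cell, and 34, 64 and 81 in ethanol cells. More than 65 assays had a value in 45.5% of ethanol cells (25 of 55) and in 14.5% of control cells (10 of 69). Fewer than 45 had a value in 12.7% (7 of 55) and 15.9% (11 of 69). The ranges overlapped almost entirely. The quartiles were 46 and 62 assays in control and 51.5 and 69 in ethanol cells. Among the extremes, quartiles and medians, the gap between the diets was largest at the median.

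The median Ct over the common assays tells how early a cell amplified as a whole. Its interquartile range was 13.5 to 15.2 in control cells and 12.6 to 14.6 in ethanol cells. Within each diet, cells with a later median had fewer assays with a value (Spearman's rho -0.78 over 69 control cells and -0.77 over 55 ethanol cells, both measured on the same reactions). Apart from the main body of cells stood 6 ethanol cells with medians between 18.8 and 22.3, in which 34 to 51 assays had a value. In control cells 2 lay above Ct 17, at 17.4 and 21.1. The SD of the median over the ethanol cells was 2.55 with these 6 cells and 1.49 without them, and it was 1.53 over all control cells. Among cells with a median between Ct 13 and 15, a range chosen after seeing the data, ethanol cells still had more assays with a value, with a median of 63 (21 cells) against 55.5 (32 cells).

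**Figure D1:**
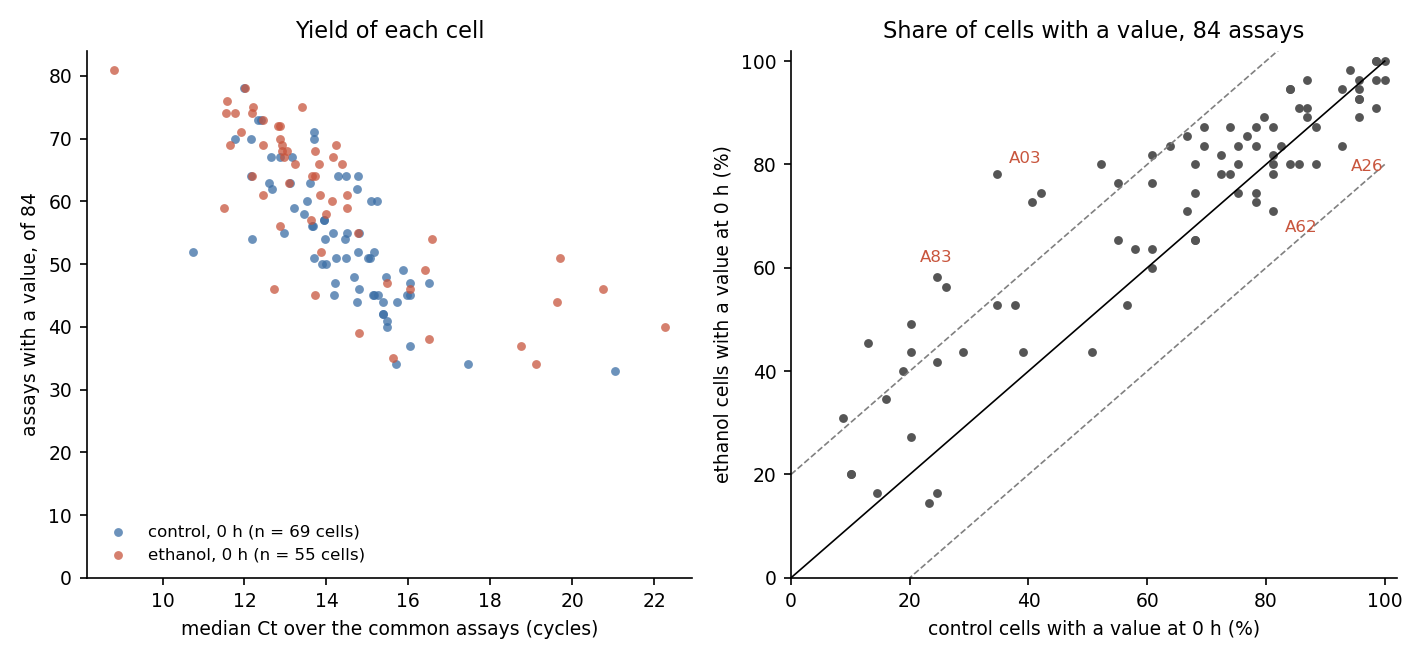
Left, the number of assays with a value in each cell against the cell's median Ct over the common assays, for 69 control and 55 ethanol cells at 0 h. Right, the share of cells with a value for each of the 84 assays, control on the horizontal and ethanol on the vertical axis, with equality as the solid line and 20 percentage points either way as dashed lines. 6 ethanol cells lie far to the right on the left panel, and 13 assays lie on or above the upper dashed line on the right panel and none below the lower one.

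The assays kept much the same order of detection on both diets. Their shares in the 2 diets correlated with Spearman's rho 0.90 across the 84 assays, which are not independent replicates. A value was present in at least 90% of cells for 14 assays in control and 17 in ethanol cells, 12 of them in both diets. A74 was the single assay with a value in all 124 cells. At the other end, 14 assays had a value in under 25% of control cells and 5 assays in under 25% of ethanol cells.

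The share was higher by at least 20 percentage points in ethanol cells for 13 of 84 assays (15.5%) and lower by as much for 0 of 84 (0%). The median difference over all assays was 5.39 points. By the control share, which is itself a term of the difference and leaves the highest shares no room to gain, it was -1.65 points for the 14 assays with a value in at least 90% of control cells, 5.39 points for the 48 assays between 50% and 90%, 24.1 points for the 8 between 25% and 50%, and 17.9 points for the 14 below 25%. Among these last 14 assays 12 had a higher share in ethanol cells, against 58 of all 84 assays.

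A03 and A83 differed most in share. In control cells A03 was detected in 34.8% (24 of 69, Clopper-Pearson 95% interval 23.7% to 47.2%), and in ethanol cells in 78.2% (43 of 55, 65.0% to 88.2%). Its relative level where present was nearly the same, with medians of -0.81 and -0.67, so that the diets differed in how many cells gave a value and hardly in its size. A83 was detected in 24.6% of control cells (17 of 69, 15.1% to 36.5%) and 58.2% of ethanol cells (32 of 55, 44.1% to 71.3%), with median relative levels of -2.61 and -1.33. In the cells with a median between Ct 13 and 15 the shares were 37.5% and 81.0% for A03 and 25.0% and 57.1% for A83. Both differences were as large there as over all cells or nearly so.

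In the other direction the differences were small. A62 was detected in 81.2% of control cells (56 of 69, 69.9% to 89.6%) and 70.9% of ethanol cells (39 of 55, 57.1% to 82.4%), and A26 in 92.8% (64 of 69, 83.9% to 97.6%) and 83.6% (46 of 55, 71.2% to 92.2%). With values above Ct 20 treated as missing, the share differences, ethanol minus control, were 2.74 points for A62 and -20.8 points for A26. With values more than 5 cycles below the cell's median treated as missing, the share of A26 was lower in ethanol cells by 36.8 points. That setting removed 24 of the 46 ethanol values and 11 of the 64 control values of A26, so it reflects level as well as detection.

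Relative levels among cells with a value were compared for the 77 assays with at least 10 such cells in each diet. By at least 1 on the log2 scale, the size rule used throughout, 13 of 77 assays were higher in ethanol cells (16.9%) and 3 of 77 lower (3.9%). The quartiles of the difference were -0.32 and 0.68 around a median of 0.10, and 38 assays differed by less than 0.5. The order of the assays by level was close on both diets (Spearman's rho 0.91 over the 77 assays). The ranges over cells overlapped for all 77 assays. No difference exceeded both SDs over cells, and 14 of the 16 were smaller than either SD.

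**Figure D2:**
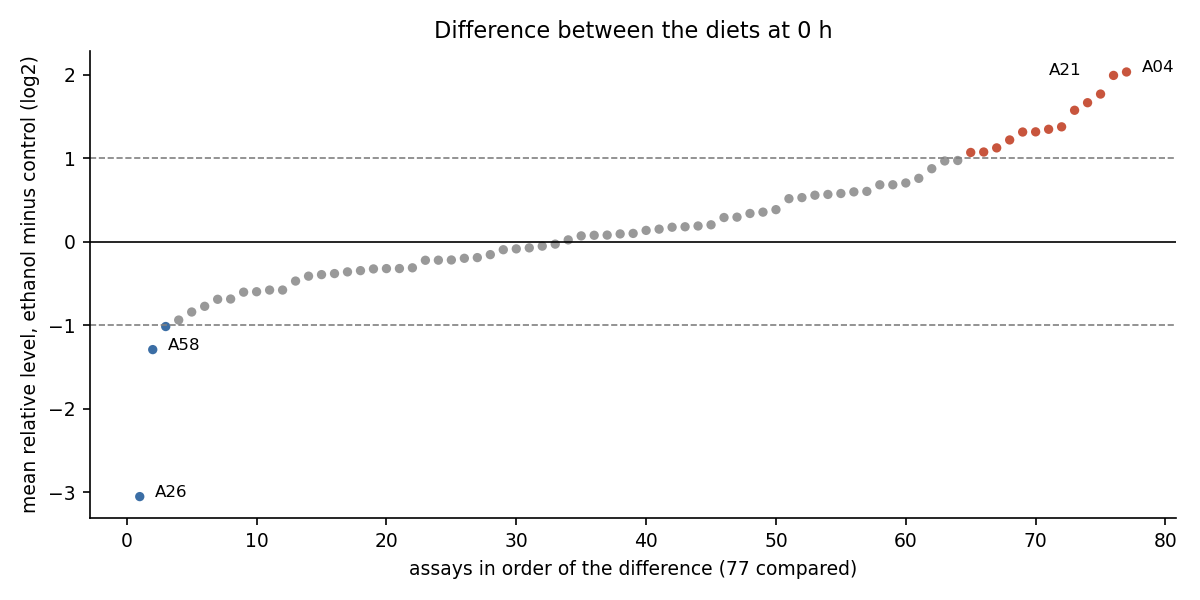
Difference of the mean relative level, ethanol minus control at 0 h, on the log2 scale for the 77 assays compared, in order of size. Dashed lines mark 1 either way, with 13 assays at or above the upper line and 3 at or below the lower line, A26 far from the rest at -3.05.

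The balance of higher and lower assays depended on what the levels were set against. Scaled to the 12 assays detected in 90% or more of every group's cells, 4 were higher and 16 lower, and the median difference was -0.45. Of the 13 higher assays, 4 belong to these 12. Without scaling, 21 were higher and 1 lower, with a median of 0.50. With medians over cells in place of means 8 were higher and 7 lower. The other settings reuse the same cells, and the higher and lower assays were chosen by the size rule, so keeping direction is not independent support. There were 10 of these settings, for scaling, summary, late values and cells. Of the 13 higher assays 12, and of the 3 lower assays 2, kept their direction under each setting that gave a value. A04, A13, A21 and A26 also kept a difference of at least 1 under each of these settings. A13 is named for this, after its values were seen, and A21 had values under 7 of the 11 settings.

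A04 was detected in nearly every cell of both diets and had the largest difference upward. Its relative level was -8.95 in the lowest, -1.59 in the median and 5.19 in the highest of 68 control cells, and -5.20, 0.15 and 4.09 in 55 ethanol cells. The means were -2.24 ± 2.78 (SD, n = 68 cells) and -0.21 ± 2.35 (SD, n = 55 cells), a difference of 2.03. The shift was present at the median and both quartiles but not at the highest cell. The lower quartile was -4.34 in control and -1.46 in ethanol cells, and the upper quartile -0.19 and 1.43. More than 5 below their cell's median lay 10 control cells and 1 ethanol cell. Taking 1 cell from each diet in every possible way, the ethanol cell was higher in 72.6% of pairs, the highest value among the 77 assays. The difference lay between 1.36 and 2.79 under these settings. A04 is itself 1 of the 28 common assays.

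A26 was the assay with the largest difference in either direction. Its relative level was -8.82 in the lowest, -1.53 in the median and 4.25 in the highest of 64 control cells, and -11.45, -5.0 and 3.31 in 46 ethanol cells. Of the 46 ethanol cells, 5 lay above the control median, and 53 of the 64 control cells lay above the ethanol median. The means were -2.04 ± 2.95 (SD, n = 64 cells) and -5.09 ± 3.39 (SD, n = 46 cells). The ethanol cell was higher in 23.7% of pairs, the lowest value among the 77. Values above Ct 20 made up 26.1% of the A26 values in ethanol and 10.9% in control cells. With these treated as missing the difference was smaller in size but lay in the same direction, within the range of -3.62 to -1.26 over the 10 settings. Ethanol cells with a later median Ct had a higher relative level of A26 (Spearman's rho 0.67 over 46 cells, against 0.33 over 64 control cells), and the part of this in the difference was not tested. The median is itself a term of the relative level, so a positive rho is partly built in. The median of such rho values was 0.23 over 76 assays in ethanol and 0.29 over 69 assays in control cells. In the cells with a median between Ct 13 and 15 the difference was -2.62.

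Because A04 and A26 were measured in the same cells, the Ct of A26 minus the Ct of A04 compares them without any scaling. This pair was formed after the values of both were seen, so the size of its difference is a description. In control cells the difference ran from -8.95 through a median of -0.11 to 8.67 cycles, and in ethanol cells from -1.64 through 4.97 to 11.4 cycles. A04 amplified before A26 in 46.9% of control cells (30 of 64) and in 97.8% of ethanol cells (45 of 46). The means were -0.01 ± 3.36 (SD, n = 64 cells) and 4.99 ± 3.17 (SD, n = 46 cells), and the ethanol cell was higher in 86.1% of cell pairs. At 24 h the control mean was 4.23 ± 2.86 (SD, n = 49 cells) and the ethanol mean 4.50 ± 3.07 (SD, n = 46 cells). On this measure the mean of the control cells at 0 h stood apart from those of the other 3 groups, while the ranges over cells overlapped.

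A21 and A58 were less firmly placed. A21 had a value in 13 control cells, with a relative level of -9.61 in the lowest, -1.89 in the median and 0.93 in the highest, and in 22 ethanol cells, with -5.91, -0.86 and 0.91. The upper ends of the ranges coincided, and 4 of the 13 control cells against 1 of the 22 ethanol cells lay more than 5 below the cell's median. The means were -3.20 ± 3.56 (SD, n = 13 cells) and -1.20 ± 1.64 (SD, n = 22 cells), and the medians differed by 1.02. A58 was lower in ethanol cells, at -11.27, -5.48 and 3.24 in the lowest, median and highest of 41 cells against -11.42, -3.64 and 3.32 in 52 control cells. The ranges were almost the same, and the ethanol cell was higher in 36.5% of cell pairs. Values above Ct 20 made up 43.9% of the A58 values in ethanol and 34.6% in control cells. The difference in means was -1.29, and it was below the size rule in 4 of the 10 settings, at -0.80 without scaling, for example.

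**Figure D3:**
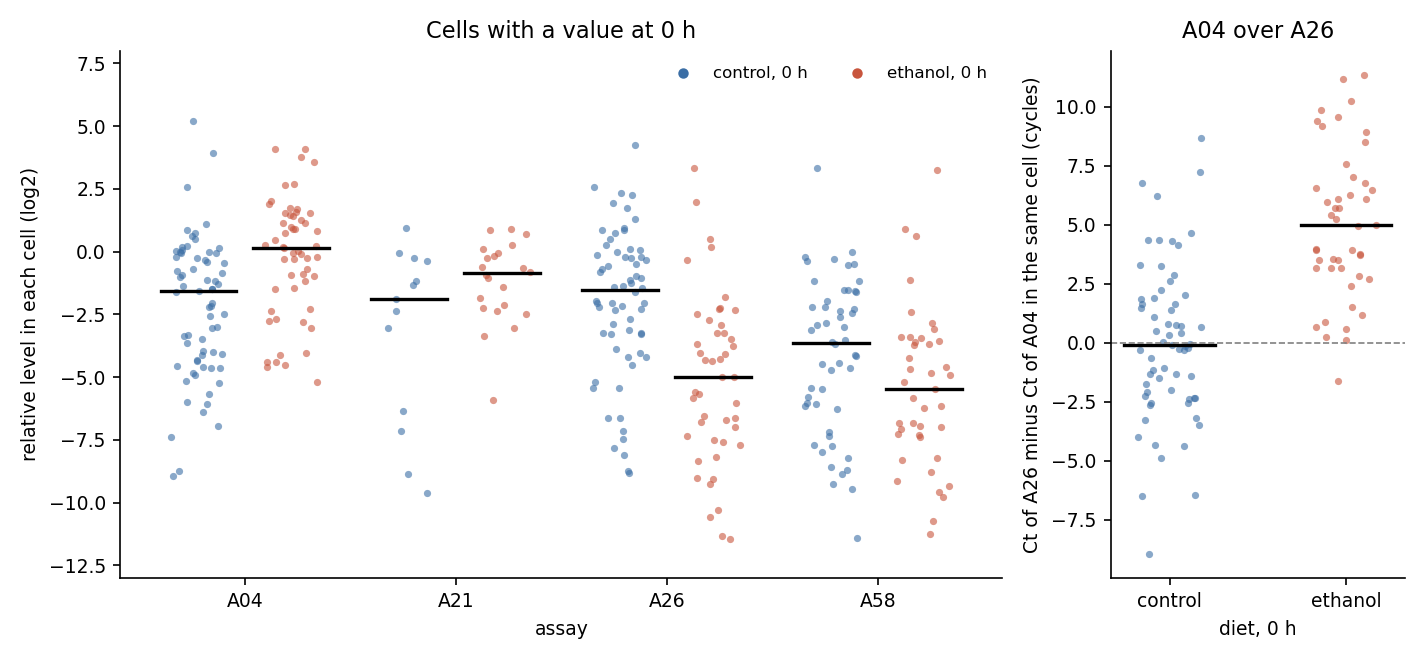
Left, the relative level (log2) of A04, A21, A26 and A58 in each cell with a value at 0 h, control and ethanol side by side, with the median as a bar. Right, the Ct of A26 minus the Ct of A04 in the same cell, in cycles, where values above the dashed line at 0 mean that A04 amplified first, as in 45 of 46 ethanol and 30 of 64 control cells.

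Level and detection were set side by side for the same assays. Of the 13 assays with a higher level, 11 also had a higher share in ethanol cells and 2 a lower one. Over the whole panel of 84 assays, 58 had a higher share and 25 a lower one. Of the 13 assays with a share higher by at least 20 points in ethanol cells, 11 could be compared in level, and 3 of the 11 were also higher by at least 1, against 16.9% of all assays compared. The level differences of the 11 ran from -0.07 to 1.99 around a median of 0.29. Conversely, 3 of the 13 with a higher level had a share higher by at least 20 points, against 15.5% of the panel. Of the 13, 5 were detected in 80% or more of the cells of both diets, where detection had little room to differ. The 28 common assays of the 84 all met that mark. The 3 assays with a lower level all had a somewhat lower share too.

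None of the 13 assays higher at 0 h was higher by as much at 24 h. In the 24 h cells, none of which are among these 124, the ethanol mean was higher by at least 1 for 0 of 84 assays (0%) and lower for 5 of 84 (5.95%). At 0 h the 13 higher assays had a median difference of 1.35. At 24 h their differences ran from -1.30 to 0.72 around a median of -0.03, and 6 of the 13 were above 0. The median difference over all 84 assays at 24 h was also -0.03. Of the 3 assays lower at 0 h, 1 was also lower by at least 1 at 24 h. A04 differed by 0.05 and A26 by -0.16 at 24 h. For A26 the control mean at 24 h was -3.81 ± 3.24 (SD, n = 49 cells) and the ethanol mean -3.96 ± 3.29 (SD, n = 46 cells), both between the 2 means at 0 h. The 13 assays with a share higher by at least 20 points at 0 h had share differences between -11.3 and 14.0 points at 24 h. Their median was -2.09 points, against -0.12 over all 84 assays. Both sets of 13 were chosen by their size at 0 h, so a smaller difference at 24 h is partly built in. Whether the diet differences at 0 h and 24 h differ was not tested.

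Cell-to-cell spread was wide in both diets and similar in its centre. The median over the 77 assays of the SD over cells was 2.18 in control and 2.23 in ethanol cells, on the log2 scale, and single assays ran from 0.97 to 3.64 and from 0.91 to 3.76. The ethanol SD was larger by at least 25% for 13 of 77 assays (16.9%) and smaller by at least 20%, the inverse ratio, for 16 of 77 (20.8%). The median ratio was 1.02. The SDs of the 2 diets correlated across the 77 assays with Spearman's rho 0.63. Spread went with late values. For the 29 control assays with an SD of at least 2.5, a median of 17.6% of values lay above Ct 20, against 1.65% for the 14 assays with an SD under 1.5. In ethanol cells the medians were 12.5% over 29 assays and 2.53% over 16 assays. The part of late values in the spread was not tested.

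A56 and A03, the 2 assays with the largest SD ratios, widened through a few cells. A56 had an SD of 0.97 over 40 control cells and 2.65 over 35 ethanol cells, a ratio of 2.73. Its interquartile ranges were 1.26 and 1.10, so the central cells were no more spread, while the extremes ran from -10.2 to 6.99 in ethanol and from -2.17 to 2.64 in control cells. A03 had SDs of 1.32 (24 cells) and 2.61 (43 cells) with interquartile ranges of 1.69 and 1.68. Of its 43 ethanol cells, 3 lay more than 5 below the cell's median. A21 and A80, with the smallest ratios, were narrower among the central cells as well. A21 had interquartile ranges of 5.96 in control and 2.16 in ethanol cells, with an SD ratio of 0.46. A80 had SDs of 1.86 (46 cells) and 0.97 (39 cells) and interquartile ranges of 1.72 and 1.01. Its medians were almost equal, at -0.15 and -0.16, so that A80 differed in spread and hardly in its central level. By the interquartile range, 4 of the 13 wider assays were also wider and 7 of the 16 narrower assays also narrower by these margins. Over all 77 assays, 19 were wider and 16 narrower by the interquartile range. Without the 6 ethanol and 2 control cells above a median of Ct 17, 4 assays were wider and 23 narrower by the SD.

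**Figure D4:**
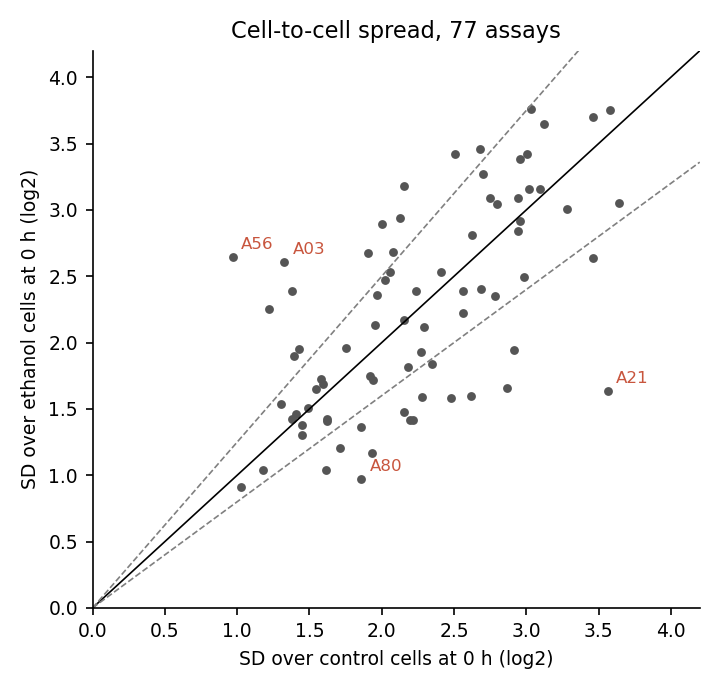
SD of the relative level over cells for the 77 assays compared, control cells on the horizontal and ethanol cells on the vertical axis, both on the log2 scale. The solid line marks equal SDs and the dashed lines an SD larger by 25% and smaller by 20%, with A56 and A03 above them and A21 and A80 below.

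Co-variation was described by Spearman's rho of the relative levels over cells with both values, for the 2146 pairs of assays with at least 20 such cells in each diet. The cells of a diet share animals, runs and overall yield that the labels do not separate, so each rho is a description. Most pairs had a weak rho, with a median of 0.09 in control and 0.08 in ethanol cells. The rho was at least 0.5 for 141 pairs in control (6.57%) and 229 pairs in ethanol cells (10.7%). It was -0.5 or lower for 4 and 32 pairs. The pairs in ethanol cells rested on fewer cells, with a median of 38 against 41, and their rho values were spread more widely, with an SD over pairs of 0.30 against 0.25. Without the cells above a median of Ct 17, 132 of 2105 pairs in control and 186 of 2105 in ethanol cells reached 0.5.

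Some co-varying pairs were common to both diets. A rho of at least 0.5 was reached in both by 65 pairs, which is 46.1% of the control pairs and 28.4% of the ethanol pairs at that level. These pairs joined 39 assays in 4 unconnected sets, of 32, 3, 2 and 2 assays. The largest set held 61 of the 478 pairs that could be formed among its assays. The cells at 24 h entered the choice of the 65 only through the choice of the common assays used for scaling. They gave these pairs a median rho of 0.41 in control and 0.40 in ethanol cells, against 0.07 and 0.05 over all 3066 pairs at 24 h. Of the 65, 10 (15.4%) reached 0.5 in both diets at 24 h, against 40 of all 3066 pairs (1.30%). The 3066 pairs include pairs with too few cells at 0 h to have been eligible, so the 2 sets of pairs are unlike. The 65 were chosen for a high rho at 0 h, so their values at the 2 times are not compared.

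The highest pairs were of different kinds. A05 and A34 had the highest rho in control cells, 0.85 (33 cells), and 0.71 in ethanol cells (36 cells). Neither moved with the cell's median Ct, with rho between -0.13 and 0.23 for the 2 assays in the 2 diets. With the median held constant, an alternative added after seeing the data, the pair stood at 0.85 and 0.72. At 24 h it was 0.43 in control and 0.25 in ethanol cells. A12 and A34 followed in control cells with 0.78 (34 cells), and had 0.60 in ethanol cells (43 cells).

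A15 and A74, both with a value in nearly all cells, had a rho of 0.76 (69 control cells) and 0.82 (53 ethanol cells), and kept 0.84 in control and 0.79 in ethanol cells at 24 h. Both were relatively higher in cells with a later median Ct, A15 with rho 0.75 in control and 0.80 in ethanol cells, and A74 with 0.56 and 0.65. The median is a term of both levels, and the median of such rho values over assays was 0.29 in control and 0.23 in ethanol cells. With the median held constant the rho of A15 and A74 was 0.62 and 0.70. A38 and A81 had the highest rho in ethanol cells, 0.83, on only 22 cells, and 0.35 in 35 control cells. Of the A38 values, 62.5% in ethanol and 60.0% in control cells lay above Ct 20. With the median held constant this pair stood at 0.61 in ethanol and 0.18 in control cells. Over all pairs 92 in control and 165 in ethanol cells reached 0.5 with the median held constant, and 34 of the 65 shared pairs still did so in both.

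Of the pairs whose rho differed most between the diets, all but A63 and A64 differed less without scaling. A12 and A30 had a rho of 0.05 in control (22 cells) and 0.77 in ethanol cells (38 cells), and A63 and A64 had -0.53 (20 cells) and 0.35 (20 cells). A43 and A50 went from 0.45 in control (22 cells) to -0.58 in ethanol cells (20 cells), and A22 and A46 from 0.40 (44 cells) to -0.61 (39 cells). These are the extremes among 2146 pairs, on few cells each. Without scaling, A12 and A30 had a rho of 0.51 in control and 0.83 in ethanol cells, above 0.5 in both diets. A63 and A64 then had -0.30 and 0.59, A43 and A50 had 0.32 and 0.26, and A22 and A46 had 0.26 and -0.10. With scaling at 24 h, A12 and A30 had 0.18 in control and -0.15 in ethanol cells, and A63 and A64 had 0.13 and 0.38. A43 and A50 had -0.13 and -0.37, and A22 and A46 had -0.36 and -0.31. For these last 3 pairs the sign was opposite between the diets at 0 h and the same in both at 24 h.

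**Figure D5:**
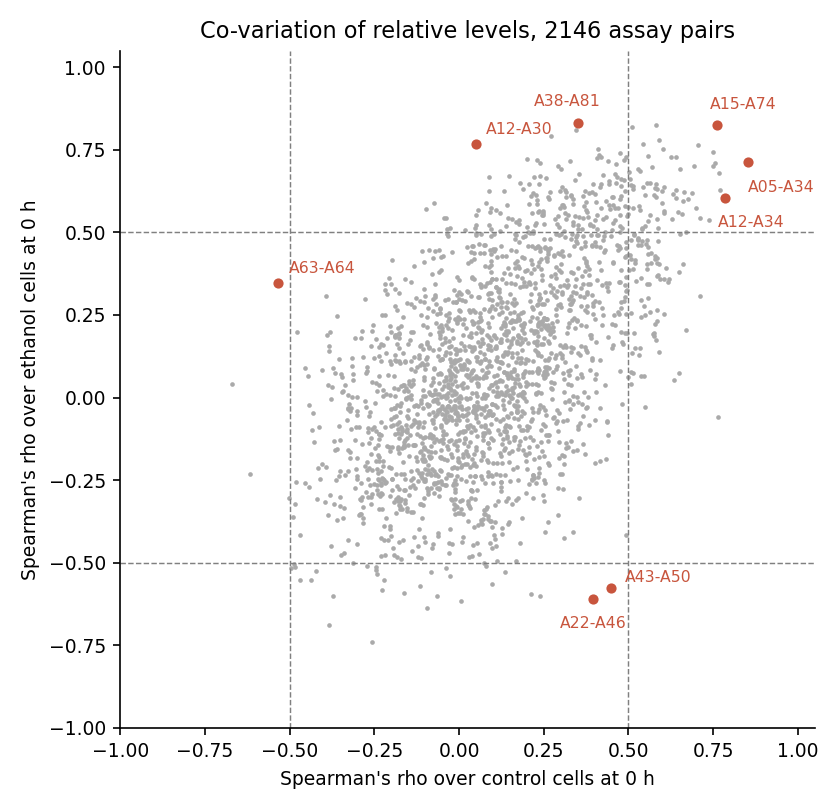
Spearman's rho of the relative levels for each of 2146 assay pairs, over control cells on the horizontal and over ethanol cells on the vertical axis, with dashed lines at 0.5 and -0.5. The 8 pairs named in the text are marked, among them A05-A34 and A15-A74 at the upper right and A12-A30, near 0 in control and 0.77 in ethanol cells.

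Missing values were shared by 5 assays. All of A05, A11, A29, A56 and A66 were missing from 15 control cells (21.7%, exact 95% interval 12.7% to 33.3%) and from 9 ethanol cells (16.4%, 7.77% to 28.8%). Outside these cells A11 had a value in every cell of both diets, A05 in 96.3% of control and 95.7% of ethanol cells, and A66 in 92.6% and 97.8%. A29 had a value in 77.8% of the other 54 control cells and 91.3% of the other 46 ethanol cells, and A56 in 74.1% and 76.1%. In both diets most of the cells without the 5 stood in runs of consecutive sample numbers. The labels do not say what the cells of a run shared, and a cause was not tested. The median Ct over the common assays was 14.7 in control and 13.0 in ethanol cells without the 5. In the other cells it was 14.2 and 13.7, so the cells without the 5 were later in control and earlier in ethanol. Without the cells lacking the 5, the size rule took in 11 higher assays and 1 lower, with A04 at 2.79 and A26 at -2.90.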

How the data were processed

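The file holds 1 Ct per assay and cell on a log2 scale of template amount, which the authors deposited as non-normalized, with NULL where there was no value. Per the labels' protocols, lysates were reverse transcribed, pre-amplified for 22 cycles and run for 30 cycles with SYBR Green. The sources used here name neither the software, the Ct threshold nor the rule for NULL. Columns were matched to cells by description. Here each cell was scaled to its median Ct over 28 assays detected in 80% or more of the cells in each of the 4 groups, a NULL counting as Ct 30. No 2 columns were identical. Shares have exact Clopper-Pearson 95% intervals, which cover counting error only. Calculations used Python 3.11.15, pandas 2.3.3 and scipy 1.17.1. The measures of level, spread and co-variation were tested on simulated data without missing values, with changes set only in assays outside the common ones. Shares and the handling of NULL were not tested in this way.

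Named are the 2 largest differences each way in level, share and spread, and the 2 pairs with the highest rho in each diet and the largest differences either way. Members, lists and limits were chosen with earlier results of these data known. Alternatives changed scaling, summary, late or missing values and cells. Marker lists were not used, since the assays carry no gene names.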

Additional observations from a re-analysis of the deposited data

Results flagged for a closer look

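A46 differed between the diets by at least 1 in opposite directions at the 2 times. At 0 h the control mean was -2.62 ± 2.80 (SD, n = 66 cells) and the ethanol mean -1.30 ± 3.04 (SD, n = 52 cells), a difference of 1.32. At 24 h the control mean was -0.02 ± 2.14 (SD, n = 55 cells) and the ethanol mean -1.32 ± 2.70 (SD, n = 53 cells), a difference of -1.30. The 2 differences lay 2.61 apart, which was not tested for want of replicate samples. The mean of the ethanol cells was nearly the same at both times.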

How the results depend on the processing

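Counts of assays higher and lower in level were 13 and 3, and became 21 and 1 without scaling, 4 and 16 with scaling to assays common at 90%, 8 and 7 with medians, 46 and 5 with NULL entered at Ct 30, and 6 and 6 with values above Ct 20 missing. The lower count was 1 without the cells lacking the 5 assays and 9 without cells above a median of Ct 17, and the higher count was 5 with values over 5 cycles below the cell median missing. Shares lower by 20 points were 1 in place of 0 with values above Ct 20 missing, with values over 5 cycles below the median missing, and among cells with a median of Ct 13 to 15. Counts of larger and smaller SDs were 25 and 5 without scaling and 20 and 6 with values above Ct 20 missing, and the larger count was 4 without cells above Ct 17. Pairs at rho 0.5 numbered 374 in control and 635 in ethanol cells without scaling, and 92 in control cells with the cell median Ct held constant. With interquartile ranges the spread ratios turned to 0.869 for A56 and 0.992 for A03, and the rho of A43 and A50 in ethanol cells turned to 0.26 without scaling. The cause of these changes was not tested. No paired analysis was possible because a number in a title names a single cell of its group and links no cells across diets. Levels rest on cells with a value, and late values limit their precision.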
